A study of Homo sapiens with 6 samples.

Results

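SR proteins and hnRNPs are the classical pair of RNA-binding protein families that decide which splice sites of a transcript are used. Their genes were taken from a table of read counts for 54261 genes: every gene whose symbol is SRSF followed by a number, or begins with HNRNP, without pseudogenes and antisense names. This gave 38 genes, of which 12 were SRSF genes (called SR genes here) and 26 were HNRNP genes (hnRNP genes). The study sequenced total RNA from 786-O, an established line of human clear-cell renal carcinoma cells, and from 7R, a 786-O derivative resistant to sunitinib, an inhibitor of receptor tyrosine kinases. There were 3 libraries of the parental line, labelled control, and 3 of the resistant line. Both lines were grown in culture dishes, and the labels do not say whether sunitinib was present at harvest, how 7R was selected, or whether it is 1 clone. Nothing says that the 3 libraries of each line were separate cultures, so the p-values compare the lines only with a library-to-library spread that may be technical. The extraction text names a brain region, while all other labels name 786-O cells.

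SR proteins carry an RNA recognition motif and a tail rich in arginine and serine. They bind exonic enhancers, recruit the U1 and U2 particles to the splice sites and become active when kinases phosphorylate the tail. The hnRNPs coat nascent transcripts through RNA recognition or KH motifs and often act as silencers, loop out exons, or hold RNA in the nucleus. In the textbook account SRSF1 and HNRNPA1 compete on alternative 5′ splice sites, and many genes of both families regulate their own transcripts through exons that lead to nonsense-mediated decay.

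Of the 38 genes, 31 had enough counts to be tested, 11 SR and 20 hnRNP genes. SRSF12, HNRNPCL1, HNRNPCL2, HNRNPCL3, HNRNPCL4 and the read-through gene HNRNPUL2-BSCL2 had 0 counts in each library, which allows up to 0.0663 to 0.0707 CPM (counts scaled to a common library size; the limit covers counting error only). HNRNPH2, a close copy of HNRNPH1, was listed with 0, 0 and 1 counts in the control libraries and 0, 2 and 6 in the resistant ones. The row RPL36A-HNRNPH2, a read-through annotation that shares HNRNPH2's exons, held 324, 277 and 292 counts in the control and 487, 634 and 774 in the resistant libraries, so reads of the 2 cannot be told apart.

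Control libraries held 48264905 to 52221491 counts and resistant ones 37919629 to 38131634. The TMM factors that scale the libraries were 0.867 to 0.912 in the control and 1.12 to 1.14 in the resistant ones. Depth and scaling factor thus both separated the lines fully. Fold changes over all genes followed the GC content of the transcripts (Spearman's rho -0.68 over 14243 genes, which are not independent replicates). The fold change of each tested SR and hnRNP gene is therefore given in 2 forms below. These are as counted and after a correction for GC content and transcript length, called corrected. Some fold changes of other genes are given as counted only. Resistant replicate 1 stood apart within its line, with chi-squares of 62.9 and 60.1 per degree of freedom in its comparisons with the other resistant libraries, where the remaining pairs gave 8.94 to 35.5. Of 8 tested markers of the renal epithelial lineage 5 fell and the other 3 were not called, their summed level lay at 2914 to 3505 CPM in the control and 1220 to 1489 CPM in the resistant libraries, and EMX2 was at 0. Corrected, 3 of these genes were called higher and 2 lower, with a median of 0.17 against -0.76 as counted. Over all genes 39.3% were called higher and 36.9% lower as counted, and 34.3% and 32.6% after correction. Markers of neurons and glia summed to 32.7 to 35.6 and 53.1 to 60.3 CPM (MOG at 0). Those of fibroblasts summed to 5.22 to 6.94 and 19.9 to 43.0 CPM. That sum was higher through LUM, which rose by 4.16 (corrected 2.86), while COL1A1 fell by 0.89 (corrected 0.23, not called). Leukocyte markers summed to 39.7 to 46.4 and 8.15 to 9.81 CPM (CD3E and PTPRC at 0), and endothelial ones to at most 0.935 CPM. The part of all these markers in the results was not tested, and in bulk RNA fewer cells of a type and less RNA per cell cannot be told apart.

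The promoters of 6 genes are shown because these genes have a single annotated start and were called in the same direction with and without the correction: the hnRNP genes with the 2 highest and the 2 lowest fold changes among these, and the SR genes SRSF1 and SRSF10. Each is the 250 bases before the start on the gene's strand, 5′ to 3′, from RefSeq on GRCh38.p14. Capitals mark matches, on either strand, to the CCAAT box (CCAAT), the GC box (GGGCGG), the TATA box (TATAAA), an ETS site (CCGGAA), or an E-box (CACGTG). A match is a description of letters, not a binding site.
HNRNPA2B1 (chr7:26200747-26200996, minus strand): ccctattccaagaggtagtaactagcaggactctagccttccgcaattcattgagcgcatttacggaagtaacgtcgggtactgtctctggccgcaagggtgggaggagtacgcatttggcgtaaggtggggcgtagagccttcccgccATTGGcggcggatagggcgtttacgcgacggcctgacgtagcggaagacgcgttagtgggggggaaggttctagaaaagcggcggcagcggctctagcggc
HNRNPA3 (chr2:177212544-177212793, plus strand): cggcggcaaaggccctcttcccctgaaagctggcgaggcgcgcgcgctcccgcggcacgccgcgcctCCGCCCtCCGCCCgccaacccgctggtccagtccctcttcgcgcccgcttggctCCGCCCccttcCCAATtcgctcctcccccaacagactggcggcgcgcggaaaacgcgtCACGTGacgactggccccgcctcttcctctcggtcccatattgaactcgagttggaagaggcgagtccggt
HNRNPA0 (chr5:137754364-137754613, minus strand): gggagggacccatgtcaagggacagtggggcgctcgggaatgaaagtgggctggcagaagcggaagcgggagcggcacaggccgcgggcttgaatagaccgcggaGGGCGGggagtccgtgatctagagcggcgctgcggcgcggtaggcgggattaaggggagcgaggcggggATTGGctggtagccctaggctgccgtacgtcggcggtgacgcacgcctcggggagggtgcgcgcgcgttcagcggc
HNRNPD (chr4:82373992-82374241, minus strand): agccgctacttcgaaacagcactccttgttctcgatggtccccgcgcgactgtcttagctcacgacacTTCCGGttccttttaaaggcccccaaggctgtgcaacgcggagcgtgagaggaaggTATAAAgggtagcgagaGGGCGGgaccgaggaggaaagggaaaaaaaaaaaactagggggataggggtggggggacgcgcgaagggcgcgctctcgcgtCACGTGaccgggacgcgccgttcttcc
SRSF1 (chr17:58007247-58007496, minus strand): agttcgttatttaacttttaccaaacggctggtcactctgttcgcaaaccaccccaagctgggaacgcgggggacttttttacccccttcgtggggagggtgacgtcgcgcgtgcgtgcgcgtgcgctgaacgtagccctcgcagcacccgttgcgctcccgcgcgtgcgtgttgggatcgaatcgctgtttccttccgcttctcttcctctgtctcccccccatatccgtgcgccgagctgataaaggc
SRSF10 (chr1:23980328-23980577, minus strand): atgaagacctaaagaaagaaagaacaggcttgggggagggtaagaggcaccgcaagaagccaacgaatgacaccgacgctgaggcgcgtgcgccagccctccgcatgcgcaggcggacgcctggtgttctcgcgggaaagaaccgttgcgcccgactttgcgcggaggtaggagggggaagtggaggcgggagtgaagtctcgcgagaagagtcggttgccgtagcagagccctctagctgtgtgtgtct

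In the promoter windows, CCAAT and GC boxes were found in a larger share of hnRNP than of SR genes, a difference that was not tested. The CCAAT box was present in 15 of 19 hnRNP genes with an entry and in 2 of 10 SR genes (SRSF3 and SRSF8), against 41.1% of 10456 tested genes. The GC box was present in 16 of 19 hnRNP and 3 of 10 SR genes (SRSF4, SRSF6 and SRSF7), against 72.3%. Counted per window, since genes with several starts have more chances, the CCAAT box was in 17 of 30 hnRNP and 3 of 13 SR windows (32.8% of 15150 windows of tested genes). The E-box was in 5 of 19 hnRNP genes and 0 of 10 SR genes (10.9% of genes), and the TATA box in 3 and 3 (7.98%). ETS sites were in 6 of 19 hnRNP and 2 of 10 SR genes (29.1%). The windows shown for SRSF1 and SRSF10 held none of these letters, which says nothing of the factors. Of the hnRNP genes shown above, HNRNPA3, which rose, and HNRNPA0, which fell, carried both a CCAAT box and a GC box. HNRNPA2B1, which rose, had only a CCAAT box, and HNRNPD, which fell, had a GC box but no CCAAT box. The table used has no entry for SRSF2 or HNRNPA1, among others.

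Both families were split between higher and lower genes in the resistant line. Of 20 tested hnRNP genes 10 rose, 6 fell and 4 did not pass edgeR's quasi-likelihood test (Benjamini-Hochberg adjusted p under 0.05). Of 11 SR genes 4 rose (SRSF1, SRSF7, SRSF10 and SRSF11), 3 fell (SRSF2, SRSF4 and SRSF9) and 4 did not pass. Over all 16642 genes tested 76.2% were called, 39.3% higher and 36.9% lower, so the families' shares of called genes lay near the background. Median log2 fold changes were 0.18 for SR genes, 0.25 for hnRNP genes and 0.05 for all genes. Changes of at least 2-fold were found in 5 higher genes (SRSF11, HNRNPA2B1, HNRNPA3, HNRNPH1 and HNRNPH3) and 2 lower ones (HNRNPA0 and HNRNPL), against 27% and 22.4% of all genes. After correction edgeR called 0 members at least 2-fold higher and 3 at least 2-fold lower (SRSF6, HNRNPK and HNRNPA0), against 14.3% and 9.2% of all genes. Without resistant replicate 1 the counts were 5 higher and 3 lower SR genes and 9 higher and 8 lower hnRNP genes, and without control replicate 2 or 3 only 2 SR genes were higher. Scaled by library size alone, where the median of all genes moved from 0.05 to 0.39, they were 6 higher and 1 lower SR genes and 10 higher and 4 lower hnRNP genes. On that scale the calls of SRSF4, SRSF9, HNRNPD and HNRNPF were lost, and the uncalled SRSF3, SRSF6, HNRNPC, HNRNPK and HNRNPM turned positive (0.14 to 0.26).

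After correction for GC content and length more genes of both families were called lower than higher. Of SR genes 3 were called higher and 5 lower, and of hnRNP genes 6 higher and 9 lower, with medians of -0.10 and -0.14. Of all 14243 genes in that test 67% were called, 34.3% higher and 32.6% lower, with a median of 0.02. Without resistant replicate 1 the corrected counts were 2 higher and 6 lower SR genes and 6 higher and 9 lower hnRNP genes. Called in the same direction with and without correction were SRSF1, SRSF10, HNRNPA2B1, HNRNPA3, HNRNPH1, HNRNPH3 and HNRNPUL2 as higher and SRSF2, HNRNPA0, HNRNPD, HNRNPF and HNRNPL as lower. Over all genes 46% had such a call, 24% higher and 22% lower. SRSF7, HNRNPDL, HNRNPLL and HNRNPU were called higher as counted and lower after correction, and SRSF4 the reverse, where 9.67% of all genes turned in this way. The levels of the 2 groups did not overlap in 8 SR genes and 17 hnRNP genes as counted, against 80.3% of all genes, and in 7 and 15 after correction, against 71.7%.

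**Figure D1:**
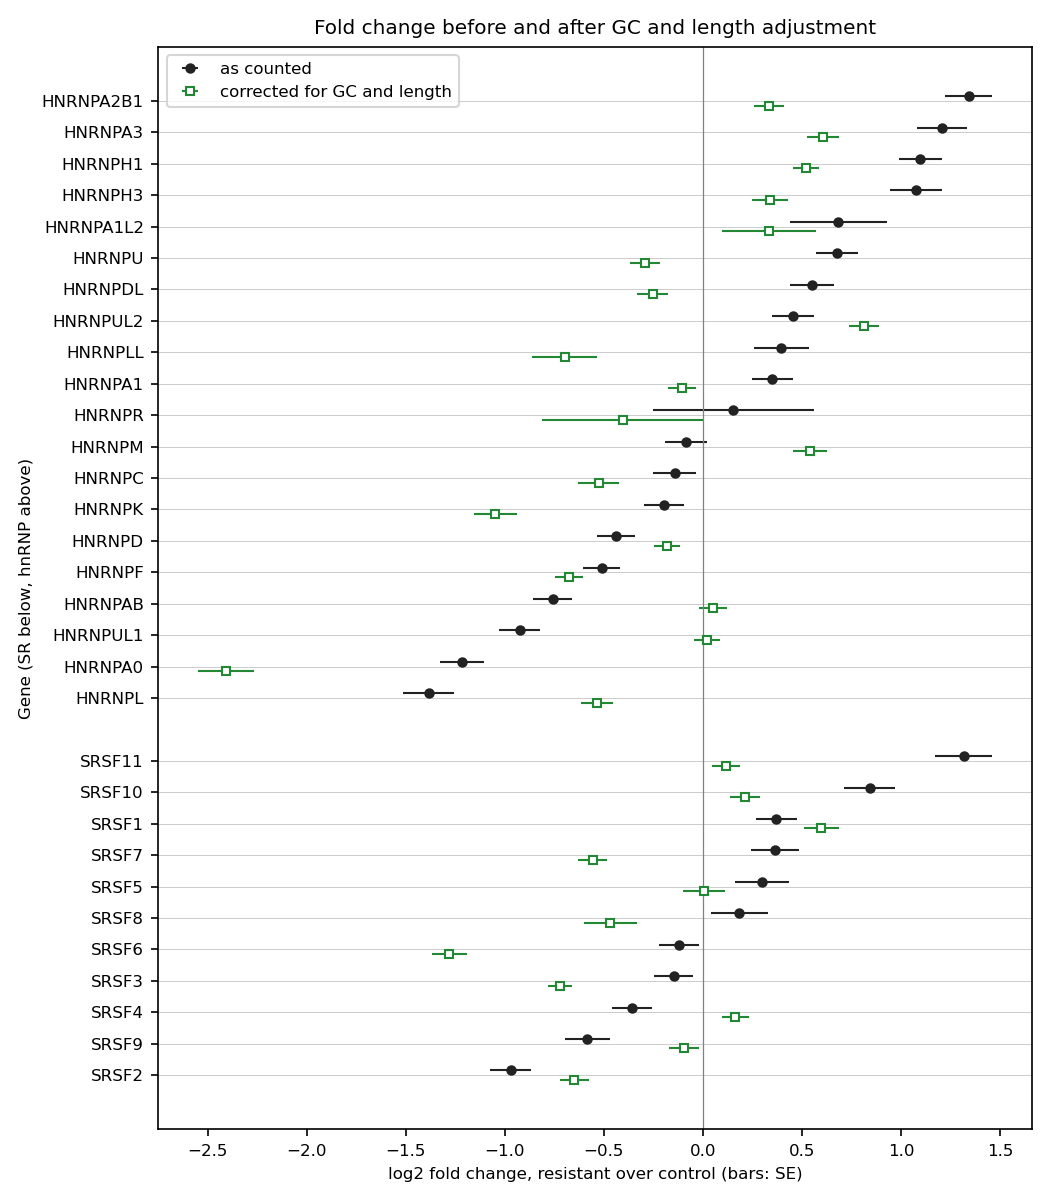
Log2 fold change (resistant over control) of the 31 tested SR and hnRNP genes, as counted and after correction for GC content and length, with SE bars derived from edgeR's test. HNRNPA2B1, HNRNPA3, HNRNPH1 and HNRNPH3 stay to the right of 0 and HNRNPA0 and HNRNPL to the left in both, while SRSF7 and HNRNPU change sides.

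The fold changes of the family members also followed GC content. Over the 11 SR genes Spearman's rho with GC content was -0.66 and over the 20 hnRNP genes it was -0.53, against 0.24 and 0.27 after correction. GC content runs from 38.3% in SRSF11 to 56.8% in HNRNPUL1, with medians of 43.9% for SR genes, 43.8% for hnRNP genes and 48.9% for all tested genes. All these points share the same 6 libraries, and the correction was fitted on these genes too, so a loss of the trend is built into it. It also removes any part of the trend that came from the cells.

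**Figure D2:**
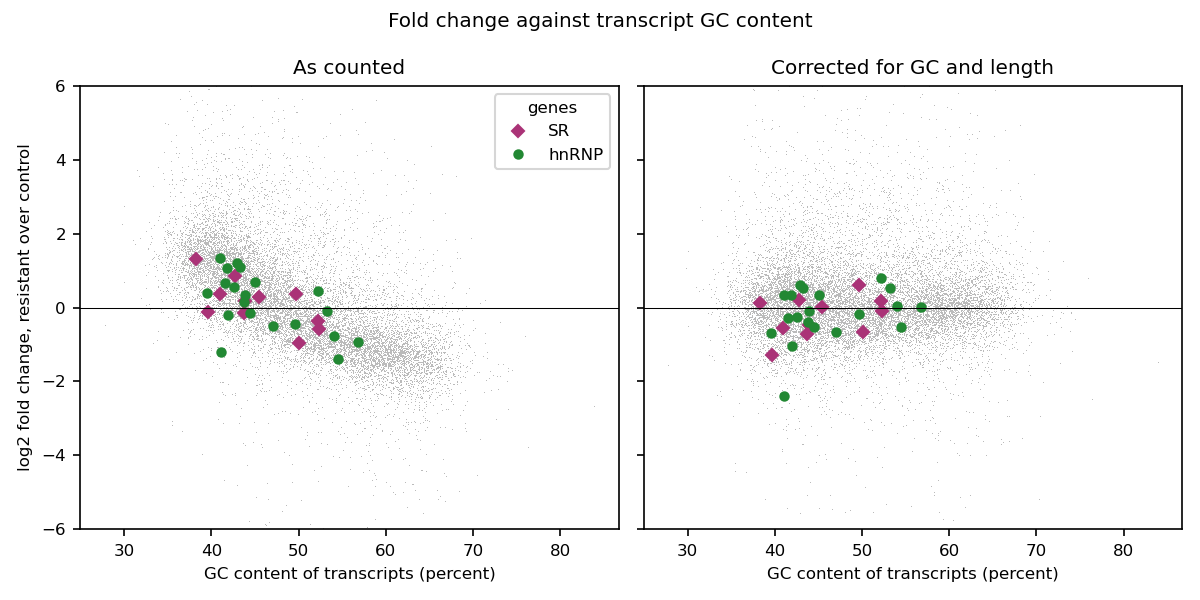
Log2 fold change of the SR and hnRNP genes against the GC content of their transcripts in percent, as counted and after correction, with all genes that have a GC value behind (a few beyond the vertical axis are not drawn). As counted, the low-GC SRSF11 (38.3%) lies high and the GC-rich HNRNPUL1 (56.8%) lies low. Not all low-GC members lie high, with HNRNPA0 (41.1%) at -1.22 and SRSF6 (39.6%) at -0.12.

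Among the SR genes, SRSF1 and its closest relative SRSF9 moved apart. SRSF1, the founding SR protein, which binds purine-rich enhancers and also acts in translation, stood at 285, 248 and 236 CPM in the control libraries and 328, 326 and 342 CPM in the resistant ones. The resistant libraries were all above the control ones. It rose by 0.37 ± 0.10 on the log2 scale (SE, edgeR adjusted p = 0.00547), a call lost without control replicate 2 (adjusted p = 0.0586) or control replicate 3 (0.0529). Its corrected log2 fold change was 0.60 ± 0.09 (adjusted p = 1.01e-04), and this stayed called whichever library was left out. SRSF9 had 112, 119 and 115 CPM in the control and 88.4, 69.0 and 73.1 CPM in the resistant libraries. It fell by 0.58 ± 0.11 (adjusted p = 5.42e-04), with groups that did not overlap. After correction the value was -0.10 ± 0.08 and not called (adjusted p = 0.279). DYNLL1, which starts 94 bases from SRSF9 in the other direction, fell by 1.44 (corrected -1.09). The neighbour GATC, whose exons overlap SRSF9 on the opposite strand, fell by 0.51 (corrected -1.04). The log2 ratio of SRSF1 to SRSF9 counts within a library, which needs no scaling between libraries, was 1.35, 1.06 and 1.04 in the control and 1.89, 2.24 and 2.23 in the resistant libraries. This was a difference of 0.97, and of 0.70 after correction, without overlap in either case.

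SRSF2, the speckle protein SC35, which binds both C-rich and G-rich enhancers, was the SR gene with the largest decrease as counted. Control libraries held 354, 369 and 331 CPM and resistant libraries 193, 180 and 165 CPM. The groups lay far apart, with the lowest control value well above the highest resistant one. The gene fell by 0.97 ± 0.10 (adjusted p = 3.29e-06), and the corrected value was -0.65 ± 0.07 (adjusted p = 1.15e-05). Both calls held whichever library was left out. MFSD11 overlaps SRSF2 on the opposite strand and fell by 0.47 (corrected -0.24). It held 409 to 447 counts in the resistant and 592 to 619 in the control libraries. Whether the counting used strand is not given in the sources used here, but MFSD11's counts were far fewer than those of SRSF2. SRSF8, a retrogene copy of SRSF2, was low, with 9.93, 12.2 and 9.52 CPM in the control and 11.8, 12.7 and 11.5 CPM in the resistant libraries. These overlapped, and the fold change of 0.18 did not pass (adjusted p = 0.260). It was -0.47 ± 0.13 after correction (adjusted p = 0.00864).

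SRSF10 and SRSF11 had the largest increases among SR genes as counted. SRSF10, which acts as a splicing repressor when dephosphorylated, stood at 99.8, 85.0 and 77.0 CPM in the control and 135, 169 and 166 CPM in the resistant libraries. All resistant values lay above all control values. It rose by 0.84 ± 0.13 (adjusted p = 7.09e-05). Its corrected value was much smaller, 0.21 ± 0.08 (adjusted p = 0.0285), the corrected levels overlapped, and the call was lost when replicate 2 or 3 of either line was left out. Corrected for GC content alone it was 0.06 (adjusted p = 0.485), and the full correction with a replicate block gave an adjusted p of 0.0597. SRSF11, an SR-related protein also known as p54, stood at 72.7, 60.5 and 53.1 CPM in the control and 130, 175 and 159 CPM in the resistant libraries, again without overlap. It rose by 1.32 ± 0.14 (adjusted p = 4.36e-06). After correction 0.12 ± 0.07 remained and was not called (adjusted p = 0.173). LRRC40, which starts 117 bases away in the other direction, rose by 1.0 and had a corrected value of -0.25.

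The small SR proteins SRSF3 and SRSF7 promote export of mRNA as well as splicing. SRSF3 had 185, 174 and 165 CPM in the control and 150, 161 and 163 CPM in the resistant libraries, which did not overlap but lay close together. Its fold change of -0.15 did not pass as counted (adjusted p = 0.184) and was -0.72 ± 0.06 after correction (adjusted p = 1.50e-06). SRSF7, the SR protein with a zinc knuckle, had 56.8, 51.7 and 44.5 CPM in the control and 59.8, 71.1 and 66.0 CPM in the resistant libraries. The groups did not overlap but nearly met. It rose by 0.36 ± 0.12 (adjusted p = 0.0165), a call lost without replicate 2 or 3 of the control (adjusted p = 0.0725 and 0.127) or replicate 2 of the resistant line (0.0746). Corrected, it was lower, at -0.56 ± 0.07 (adjusted p = 3.48e-05). The log2 ratio of SRSF3 to SRSF7 kept its sign, with a difference of -0.51 as counted and -0.17 after correction, without overlap in both.

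SRSF4, SRSF5 and SRSF6 share 2 RNA recognition motifs and long tails. SRSF4 had 124, 122 and 121 CPM in the control and 104, 94.4 and 88.8 CPM in the resistant libraries. The resistant values were all below the control ones. It fell by 0.36 ± 0.10 (adjusted p = 0.00637), while the corrected value was 0.16 ± 0.07 (adjusted p = 0.0491), a call lost whichever library was left out. SRSF5, an SR gene whose RNA responds to growth stimuli, had 58.7, 47.1 and 44.7 CPM in the control and 59.7, 70.4 and 54.9 CPM in the resistant libraries, which overlapped. Neither its fold change of 0.30 (adjusted p = 0.0640) nor the corrected 0.01 (adjusted p = 0.970) passed. SRSF6 had 219, 207 and 192 CPM in the control and 186, 201 and 182 CPM in the resistant libraries, and the groups overlapped. The fold change of -0.12 did not pass (adjusted p = 0.281). Corrected, SRSF6 was -1.28 ± 0.09 (adjusted p = 3.34e-07), the lowest corrected value of an SR gene, in a gene with 39.6% GC content.

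**Figure D3:**
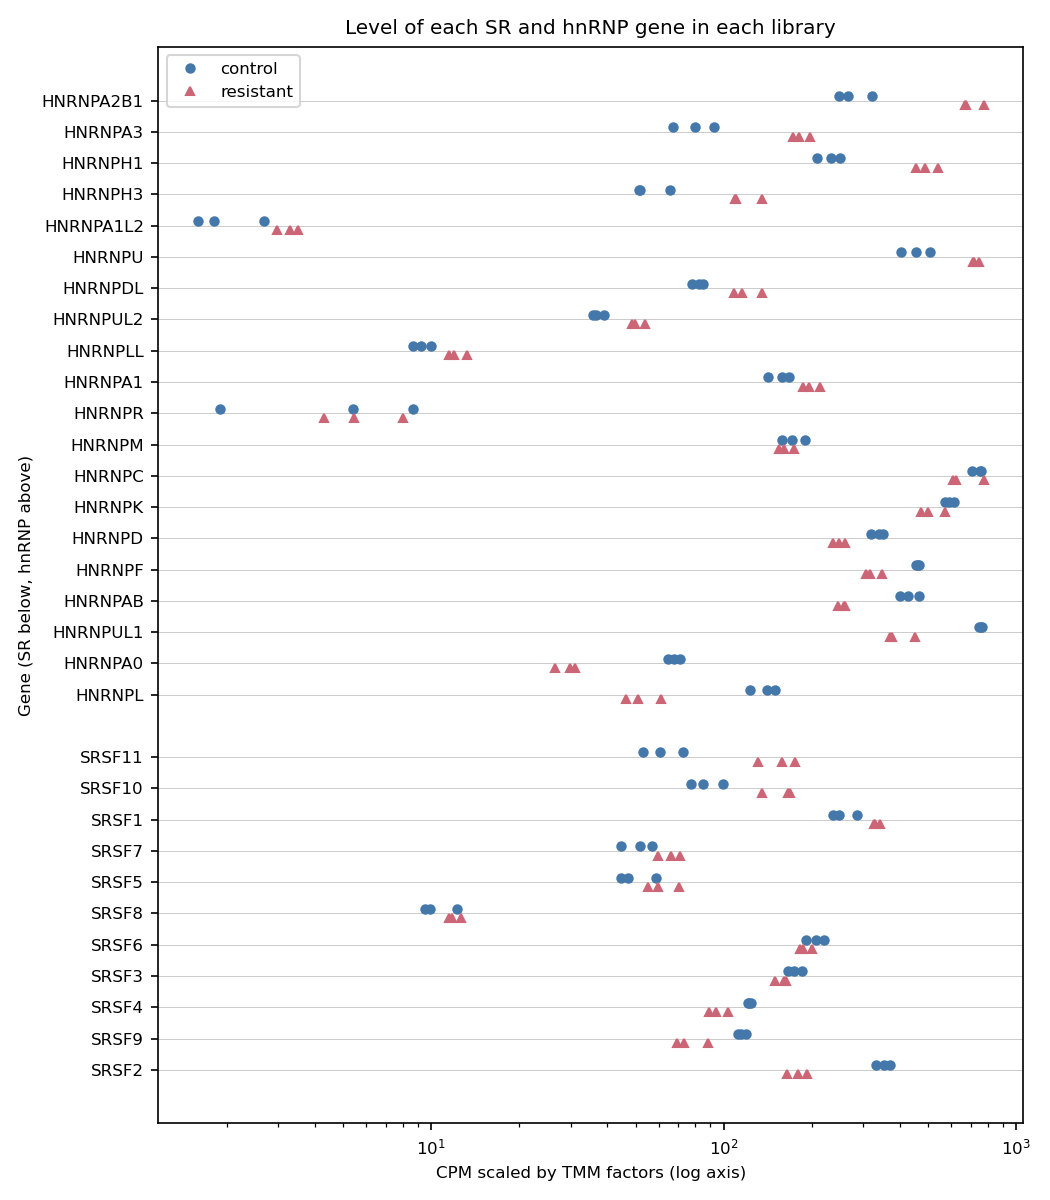
Level of each tested SR and hnRNP gene in CPM (log axis) in each of the 3 control and 3 resistant libraries, as counted. The groups separate fully for genes such as SRSF2, HNRNPA2B1, HNRNPH1 and HNRNPL and overlap for SRSF5, SRSF6, SRSF8, HNRNPC, HNRNPM and HNRNPR.

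On a scale of CPM per kilobase of transcript, meant for comparing different genes, the order of SR genes changed at the top as counted. In the control libraries SRSF2 (182 ± 9.82, SD, n = 3) and SRSF1 (181 ± 18.1) led and overlapped, followed by SRSF9 at 95.9 ± 3.10. In the resistant libraries SRSF1 led alone at 234 ± 6.21, ahead of SRSF10 at 95.9 ± 11.5 and SRSF2 at 93.0 ± 7.37, which overlapped. SRSF8 was last in both lines (2.62 and 2.98). SRSF7 and SRSF11 overlapped in the control libraries (20.8 and 20.5), and in the resistant ones SRSF11 (51.0 ± 7.41) was above SRSF7 (26.8 ± 2.32). After correction SRSF2 averaged 220 CPM and SRSF10 138 CPM in the resistant libraries, before division by length. No corrected order per kilobase was made.

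The hnRNP A group, core proteins of hnRNP particles with 2 RNA recognition motifs and a glycine-rich tail, held, as counted, both the largest hnRNP increase and a decrease of more than 2-fold. HNRNPA2B1, which binds m6A-marked and trafficked RNA, stood at 321, 267 and 247 CPM in the control and 674, 774 and 670 CPM in the resistant libraries. All resistant libraries lay far above all control libraries. It rose by 1.34 ± 0.12 (adjusted p = 9.74e-07), and by 0.33 ± 0.08 after correction (adjusted p = 0.00241). CBX3, which starts 697 bases away in the other direction and shares exon bases with HNRNPA2B1 on the opposite strand, rose by 1.24, with a corrected value of 0.16 that was not called (adjusted p = 0.0939). HNRNPA3, a close relative, had 92.3, 79.5 and 67.0 CPM in the control and 173, 197 and 181 CPM in the resistant libraries. It rose by 1.20 ± 0.13 (adjusted p = 3.33e-06) and by 0.60 ± 0.08 after correction (adjusted p = 4.76e-05). Calls of both genes held in both analyses whichever library was left out.

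HNRNPA1, the best known member and a repressor of exons, stood at 158, 167 and 142 CPM in the control and 186, 213 and 196 CPM in the resistant libraries. The groups did not overlap as counted. It rose by 0.35 ± 0.10 (adjusted p = 0.00875), a call lost without control replicate 3 (adjusted p = 0.0829). After correction the value was -0.11 ± 0.07 and not called (adjusted p = 0.201). HNRNPA1 has many processed pseudogenes, whose rows held 28.7% to 30.4% of the counts of parent and pseudogenes together in the control and 26.3% to 27.1% in the resistant libraries. HNRNPA1L2, an intronless copy of it, was near the lowest levels tested, with 1.59, 2.67 and 1.81 CPM in the control and 3.50, 3.30 and 2.97 CPM in the resistant libraries. It rose by 0.68 ± 0.24 (adjusted p = 0.0228), lost without replicate 1 or 3 of the control or replicate 2 of the resistant line (adjusted p = 0.104, 0.0911 and 0.0526), and the corrected 0.33 was not called.

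HNRNPA0, the intronless member that binds AU-rich elements, went the other way. Control libraries held 64.4, 67.8 and 71.0 CPM and resistant ones 31.1, 26.5 and 29.8 CPM. All resistant libraries lay far below all control libraries. It fell by 1.22 ± 0.11 (adjusted p = 1.15e-06) and the corrected value was -2.41 ± 0.14 (adjusted p = 1.03e-07). The corrected size rests on an annotated transcript of 8726 bases, whose length and GC content may not be those of the RNA in these cells. Within libraries, the log2 ratio of HNRNPA2B1 to HNRNPA1 was 1.03, 0.68 and 0.80 in the control and 1.86, 1.86 and 1.77 in the resistant libraries. That difference of 1.0 was 0.43 after correction, and the ratio of HNRNPA1 to HNRNPA0 differed by 1.57 and 2.31, each without overlap.

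HNRNPF, HNRNPH1 and HNRNPH3 bind runs of G, and here the closely related F and H genes changed in opposite directions. HNRNPH1 stood at 250, 232 and 209 CPM in the control and 453, 538 and 489 CPM in the resistant libraries. HNRNPF had 463, 464 and 456 CPM in the control and 348, 316 and 306 CPM in the resistant libraries. Neither gene's groups overlapped. In CPM per kilobase of transcript HNRNPF was above HNRNPH1 in each control library (173 ± 1.68 and 106 ± 9.45, SD, n = 3) and below it in each resistant library (121 ± 8.21 and 226 ± 19.5). HNRNPH1 rose by 1.10 ± 0.11 (adjusted p = 2.14e-06), and by 0.52 ± 0.07 after correction (adjusted p = 2.95e-05). HNRNPF fell by 0.51 ± 0.09 (adjusted p = 3.43e-04), and had a corrected value of -0.67 ± 0.07 (adjusted p = 6.75e-06). HNRNPH3, a shorter relative, had 65.6, 51.8 and 51.4 CPM in the control and 110, 136 and 111 CPM in the resistant libraries. It rose by 1.08 ± 0.13 (adjusted p = 1.22e-05), and by 0.34 ± 0.09 after correction for GC content and length (adjusted p = 0.00651), while with GC content alone corrected it was 0.17 and not called (adjusted p = 0.104). RUFY2, whose exons overlap HNRNPH3 on the opposite strand, rose by 1.64 (corrected 0.44). It held 417 to 467 counts in the control and 1032 to 1536 in the resistant libraries.

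The log2 ratio of HNRNPH1 to HNRNPF was -0.89, -1.0 and -1.12 in the control libraries and 0.38, 0.77 and 0.68 in the resistant ones. This difference of 1.61 was 1.20 after correction, from -0.80 ± 0.07 to 0.40 ± 0.14 (SD, n = 3), without overlap. HNRNPH3 to HNRNPF differed by 1.59, and by 1.01 corrected. The ratio of HNRNPH1 to HNRNPH3 overlapped between the lines, with 2.04 ± 0.12 and 2.06 ± 0.08. HNRNPH1 rose and HNRNPF fell both as counted and after correction. The ratio of the 2 restates these fold changes within libraries and is not separate support.

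**Figure D4:**
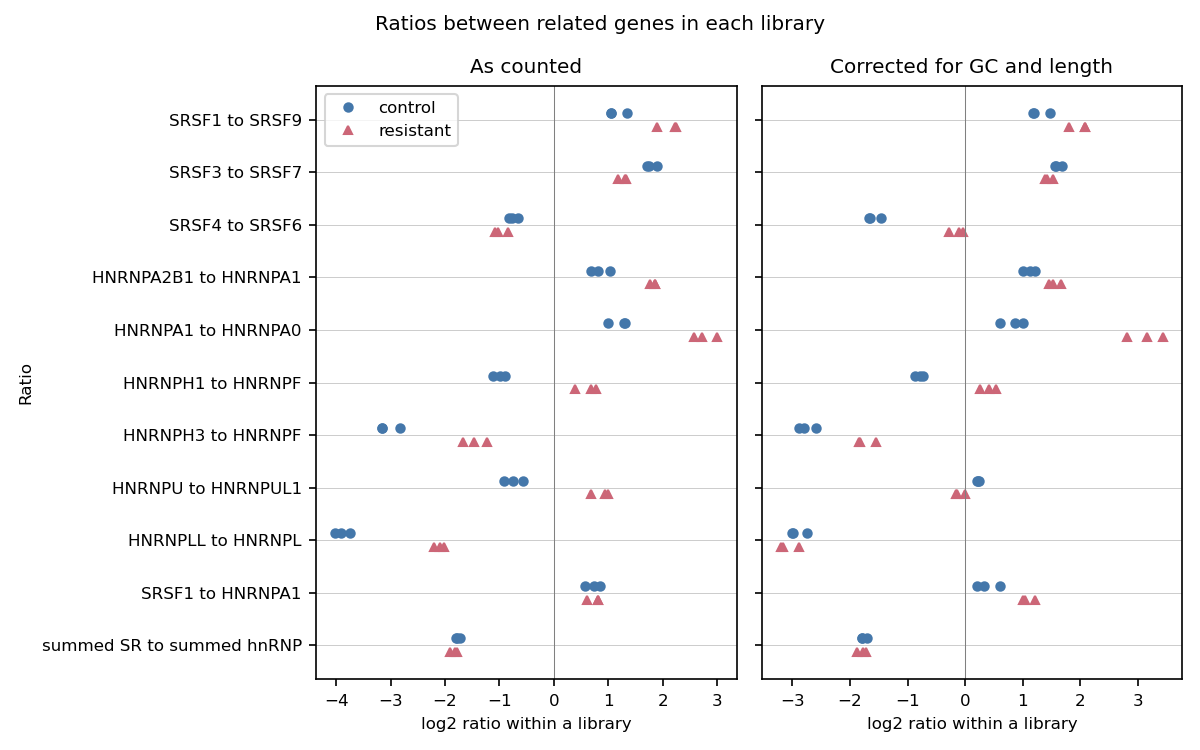
Log2 ratio of the counts of 2 related genes within each of the 3 control and 3 resistant libraries, as counted (left) and corrected for GC content and length (right). The control and resistant libraries separate for HNRNPH1 to HNRNPF in both panels (differences of 1.61 and 1.20), while for SRSF1 to HNRNPA1 they overlap as counted (0.02) and separate after correction (0.71).

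Of the D group, whose proteins bind AU-rich and telomeric sequences, HNRNPD and HNRNPAB fell and HNRNPDL rose as counted. HNRNPD (AUF1), which promotes decay of AU-rich mRNAs, had 338, 351 and 319 CPM in the control and 260, 248 and 236 CPM in the resistant libraries. It fell by 0.44 ± 0.10 (adjusted p = 0.00113). The corrected value was -0.18 ± 0.07 (adjusted p = 0.0312), a call lost without replicate 2 of the control or replicate 2 or 3 of the resistant line. HNRNPAB had 399, 465 and 426 CPM in the control and 261, 257 and 245 CPM in the resistant libraries, well apart. It fell by 0.76 ± 0.10 (adjusted p = 1.91e-05), while the corrected 0.05 was not called (adjusted p = 0.527). PHYKPL, which overlaps it on the opposite strand, rose by 0.73 (corrected 1.58). HNRNPDL had 82.1, 85.2 and 77.8 CPM in the control and 109, 135 and 115 CPM in the resistant libraries. It rose by 0.55 ± 0.11 (adjusted p = 6.58e-04) and turned to -0.25 ± 0.08 after correction (adjusted p = 0.0137), which was lost without control replicate 2 or resistant replicate 3. The log2 ratio of HNRNPDL to HNRNPD differed by 0.98 as counted and overlapped after correction (-0.07).

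As counted, HNRNPL, which binds CA repeats, fell most among hnRNP genes and its homologue HNRNPLL rose, while both were called lower after correction. HNRNPL had 123, 140 and 150 CPM in the control and 61.2, 46.3 and 50.9 CPM in the resistant libraries. The groups lay far apart. It fell by 1.38 ± 0.13 (adjusted p = 1.37e-06) with a corrected value of -0.54 ± 0.08 (adjusted p = 1.13e-04). The pseudogene HNRNPLP2 held 3332 to 3777 counts in the control and 1323 to 1640 in the resistant libraries. It fell by 1.20, while the corrected -0.17 was not called (adjusted p = 0.0611). Rows of HNRNPL pseudogenes took 35.4% to 42.3% of the summed counts, so the split between parent and copy is uncertain. Adding pseudogene counts to each parent changed no call of any of the 31 genes. HNRNPLL, an exon repressor first studied in lymphocytes, had 9.22, 8.69 and 9.94 CPM in the control and 13.2, 11.5 and 12.0 CPM in the resistant libraries. It rose by 0.40 ± 0.14 (adjusted p = 0.0192), a call lost when replicate 1 or 2 of the control or replicate 1 of the resistant line was left out (adjusted p = 0.0728, 0.128 and 0.0505). The corrected value was -0.70 ± 0.16 (adjusted p = 0.00253). The log2 ratio of HNRNPLL to HNRNPL differed by 1.78 as counted and overlapped after correction (-0.17).

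HNRNPU (scaffold attachment factor A), which binds chromatin and nascent RNA, and its relative HNRNPUL1 crossed as counted. HNRNPU had 505, 455 and 402 CPM in the control and 718, 747 and 713 CPM in the resistant libraries. HNRNPUL1 had 746, 766 and 758 CPM in the control and 450, 376 and 370 CPM in the resistant libraries. Per kilobase of transcript HNRNPUL1 was above HNRNPU in each control library (264 ± 3.61 and 107 ± 12.2 CPM) and below it in each resistant library (139 ± 15.7 and 172 ± 4.37 CPM). HNRNPU rose by 0.68 ± 0.11 (adjusted p = 8.64e-05) and HNRNPUL1 fell by 0.92 ± 0.10 (adjusted p = 5.98e-06). Neither direction held after correction, with -0.29 ± 0.08 for HNRNPU (adjusted p = 0.00507) and 0.02 ± 0.06 for HNRNPUL1 (adjusted p = 0.789). These genes lie near opposite ends of GC content among the members, 41.5% and 56.8%. TGFB1, which overlaps HNRNPUL1 on the opposite strand, fell by 1.35 (corrected 0.04), and COX20, which overlaps HNRNPU, rose by 0.60 (corrected 0.35). HNRNPUL2, which acts in DNA end resection, had 39.0, 36.6 and 35.6 CPM in the control and 53.8, 48.7 and 49.9 CPM in the resistant libraries. It rose by 0.45 ± 0.10 (adjusted p = 0.00175) and by 0.81 ± 0.08 after correction (adjusted p = 3.11e-06). Its bidirectional neighbour TTC9C, 720 bases away, fell by 0.57 (corrected -0.50).

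HNRNPC, HNRNPK and HNRNPM, which are abundant, did not pass the test as counted. HNRNPC, which binds runs of U and measures transcript length, had 758, 754 and 705 CPM in the control and 775, 624 and 609 CPM in the resistant libraries. Resistant replicate 1 was the highest of all 6 libraries and the other resistant libraries were the lowest. The fold change was -0.14 ± 0.11 (adjusted p = 0.255), and -0.27 without resistant replicate 1 (adjusted p = 0.00796). Corrected, it was -0.53 ± 0.10 (adjusted p = 7.89e-04). HNRNPK, the C-rich binder with KH motifs, had 611, 588 and 570 CPM in the control and 569, 501 and 472 CPM in the resistant libraries, and a fold change of -0.20 (adjusted p = 0.0928), or -0.28 without resistant replicate 1 (0.00613). After correction it was -1.05 ± 0.11 (adjusted p = 6.73e-06). HNRNPM, which binds GU-rich RNA, had 189, 171 and 158 CPM in the control and 174, 160 and 154 CPM in the resistant libraries which overlapped, and a fold change of -0.08 (adjusted p = 0.477). It was higher after correction, at 0.54 ± 0.09 (adjusted p = 1.70e-04).

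HNRNPR, a relative of SYNCRIP, was low and variable. Its counts came to 5.41, 8.64 and 1.90 CPM in the control and 7.99, 5.42 and 4.31 CPM in the resistant libraries. The control libraries alone spanned the whole resistant range. Neither 0.15 (adjusted p = 0.743) nor the corrected -0.41 (adjusted p = 0.399) passed, and the sign as counted turned without control replicate 3 (-0.28) or resistant replicate 1 (-0.13). The corrected value ranged from -0.80 to 0.16 with 1 library left out and was called only without control replicate 3 (adjusted p = 0.0391). How reads in overlapping or duplicated annotation were counted is not given in the sources used here, and its part in this spread was not tested.

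In CPM per kilobase as counted, HNRNPC led the hnRNP genes in both lines (462 ± 18.4 and 419 ± 57.3). HNRNPUL1 (264 ± 3.61) and HNRNPAB (257 ± 19.8), which overlapped, came next in the control libraries. In the resistant ones it was HNRNPH1 (226 ± 19.5) and HNRNPA2B1 (201 ± 16.7), which overlapped with each other, and HNRNPA2B1 with HNRNPK (184 ± 17.7). HNRNPUL1 was at 139 ± 15.7 there. HNRNPA1L2 and HNRNPR were the lowest in both lines, and these overlapped. After correction HNRNPUL1 averaged 597 CPM in the control and 606 CPM in the resistant libraries, and HNRNPAB 356 and 369 CPM. Neither of these changes was called. These corrected values are not divided by length, and no corrected order per kilobase was made.

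The sums of the SR genes and of the hnRNP genes overlapped between the lines in TMM-scaled CPM but not with scaling by library size alone. Summed levels of the 11 SR genes were 1578, 1496 and 1389 CPM in the control and 1446, 1528 and 1470 CPM in the resistant libraries. For the hnRNP genes they were 5221, 5161 and 4859 CPM and 5430, 5363 and 5016 CPM. Scaled by library size alone, an alternative chosen after seeing the data, the SR sums were 1204 to 1439 CPM in the control and 1640 to 1714 CPM in the resistant libraries, and the hnRNP sums 4212 to 4762 and 5615 to 6161 CPM. The log2 ratio of summed SR to summed hnRNP counts was -1.77 ± 0.04 in the control and -1.83 ± 0.07 in the resistant libraries (SD, n = 3), a difference of -0.06 that was -0.03 after correction.

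The ratio of SRSF1 to HNRNPA1, the pair that competes in the textbook account, depended on the correction. Its log2 value was 0.86, 0.57 and 0.74 in the control and 0.82, 0.61 and 0.80 in the resistant libraries. The difference of 0.02 had an exact two-sided permutation p of 0.8, and its sign turned without control replicate 2 (-0.05) or without resistant replicate 1 or 3 (-0.01 each). After correction the values were 0.61, 0.20 and 0.32 in the control and 1.05, 1.0 and 1.22 in the resistant libraries. That difference of 0.71 was without overlap and had an exact permutation p of 0.1, the smallest that 3 against 3 can give.

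Genes that act with the SR proteins and hnRNPs also split, with some large changes. Of 18 tested SR protein partners, kinases and import factors, 9 rose and 6 fell, with a median log2 fold change of 0.25, and after correction 9 were called higher and 6 lower (median 0.17). Each list count from here on stands against 39.3% higher and 36.9% lower of all genes as counted, and 34.3% and 32.6% after correction. SRPK1, the main cytoplasmic SR protein kinase, rose from 49.4 ± 5.08 to 144 ± 2.84 CPM (SD, n = 3), by 1.54 on the log2 scale and by 0.63 after correction. PRPF4B, a nuclear kinase of spliceosome proteins, rose from 27.3 ± 4.88 to 107 ± 21.7 CPM (corrected 0.77). RNPS1, which links splicing to mRNA surveillance, fell from 551 ± 47.7 to 184 ± 22.8 CPM (corrected -0.56). Each of these calls held after correction.

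Of 22 tested hnRNP-class proteins under other symbols 7 rose and 8 fell (median 0.09), and after correction 6 of 21 were called higher and 11 lower (median -0.17). The C-rich binder PCBP1 fell from 431 ± 38.6 to 153 ± 16.0 CPM (corrected -0.56). PTBP2, the neuronal form of the polypyrimidine tract binder, rose from 12.0 ± 0.388 to 44.1 ± 8.45 CPM (corrected 0.61), and TIA1, which binds U-rich sequences after weak 5′ splice sites, from 25.0 ± 3.08 to 75.7 ± 9.35 CPM (corrected 0.32). All 3 remained called after correction.

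The U1 list of 8 genes had 4 higher and 3 lower (median 0.06), and 5 and 1 after correction (median 0.50). LUC7L3, a U1-associated protein, rose from 12.8 ± 1.60 to 74.8 ± 17.4 CPM (corrected 1.70). SNRPA fell from 244 ± 14.5 to 97.5 ± 16.3 CPM, with a corrected -0.12 that was not called. Of the 7 Sm core genes 2 rose and 3 fell (median 0.10), and 1 and 5 after correction (median -0.38). SNRPD3 rose from 139 ± 13.3 to 245 ± 6.94 CPM (corrected 1.18), SNRPB fell from 201 ± 19.0 to 74.4 ± 13.1 CPM (corrected -0.38), and SNRPD1 rose from 54.6 ± 4.93 to 91.0 ± 3.79 CPM but was called lower after correction (-0.37).

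The U2 particle and U2AF, which read the branch point and the 3′ splice site, had mostly lower genes. Of 16 tested 3 rose and 11 fell, with a median of -1.01, and after correction 3 were called higher and 8 lower (median -0.28), against 36.9% and 32.6% of all genes lower. The 11 include U2AF1 and PUF60, which had few counts (20 to 70 and 84 to 273). After correction U2AF1 was not called and PUF60 was called higher. SF3B1, the large branch-point subunit, was among the 3 that rose, from 93.8 ± 10.4 to 344 ± 53.5 CPM (corrected 1.18), and the others, SF3B6 and SNRPB2, rose by 0.51 and 0.74 and were called lower after correction (-0.41 and -0.34). SF3B4 of the same complex fell from 247 ± 14.6 to 76.8 ± 7.82 CPM (corrected -0.78). U2AF2 fell from 299 ± 18.7 to 122 ± 11.1 CPM, with a corrected 0.12 that was not called. The tri-snRNP and catalytic core had 4 higher and 8 lower of 14 (median -0.36), and 3 and 5 after correction (median -0.14). PRPF8, among the 8, had overlapping groups, with 779, 1321 and 1101 counts in the control and 259, 951 and 343 in the resistant libraries. SNRNP40 fell from 146 ± 6.10 to 61.1 ± 9.46 CPM (corrected -1.65), PRPF6 from 263 ± 13.8 to 117 ± 18.2 CPM (corrected -0.22), and CRNKL1 rose from 6.11 ± 0.0987 to 18.5 ± 3.22 CPM (corrected 0.62).

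Nonsense-mediated decay degrades the poison-exon transcripts by which SR and hnRNP genes limit themselves. Of its 10 tested factors 4 rose and 5 fell (median -0.19), and after correction 6 were called higher and 1 lower (median 0.33), against 34.3% and 32.6% of all genes. UPF1, the helicase, fell from 168 ± 7.88 to 68.9 ± 12.6 CPM, with a corrected -0.17 that was not called. UPF2 rose from 17.5 ± 1.89 to 65.3 ± 11.3 CPM (corrected 0.86), and SMG1, the kinase of UPF1, from 114 ± 6.65 to 282 ± 36.8 CPM (corrected 0.31). GENCODE release 29 lists a transcript model subject to this decay for 11 of 11 SR genes, 13 of 20 hnRNP genes and 43.3% of 11924 tested protein-coding genes. Models with a retained intron are listed for 8, 14 and 57.8%. Gene counts sum all of these, so isoforms cannot be told apart.

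Among 7 tested tissue-specific splicing regulators 3 rose and 1 fell (median 0.57), and after correction 2 were called higher and 2 lower (median -0.04). MBNL2, which binds YGCY motifs, rose from 42.3 ± 5.44 to 122 ± 16.3 CPM (corrected 0.21). MBNL1 and QKI rose by 0.91 and 0.62 and were called lower after correction (-0.40 and -0.65). ESRP2, the epithelial regulator, was under 1 CPM in both lines and fell by 1.12, with a corrected -0.04 that was not called.

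The largest changes of any splicing list were in the RNAs of nuclear speckles and paraspeckles, where SR proteins and several hnRNPs gather. MALAT1, the speckle RNA, held 26721, 20079 and 20301 counts in the control and 191850, 375226 and 416380 in the resistant libraries. It rose by 3.92 ± 0.26 (adjusted p = 1.73e-07), and by 2.66 after correction. NEAT1, the scaffold of paraspeckles, rose from 168 ± 24.9 to 1619 ± 357 CPM, by 3.27 and by 3.07 after correction.

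**Figure D5:**
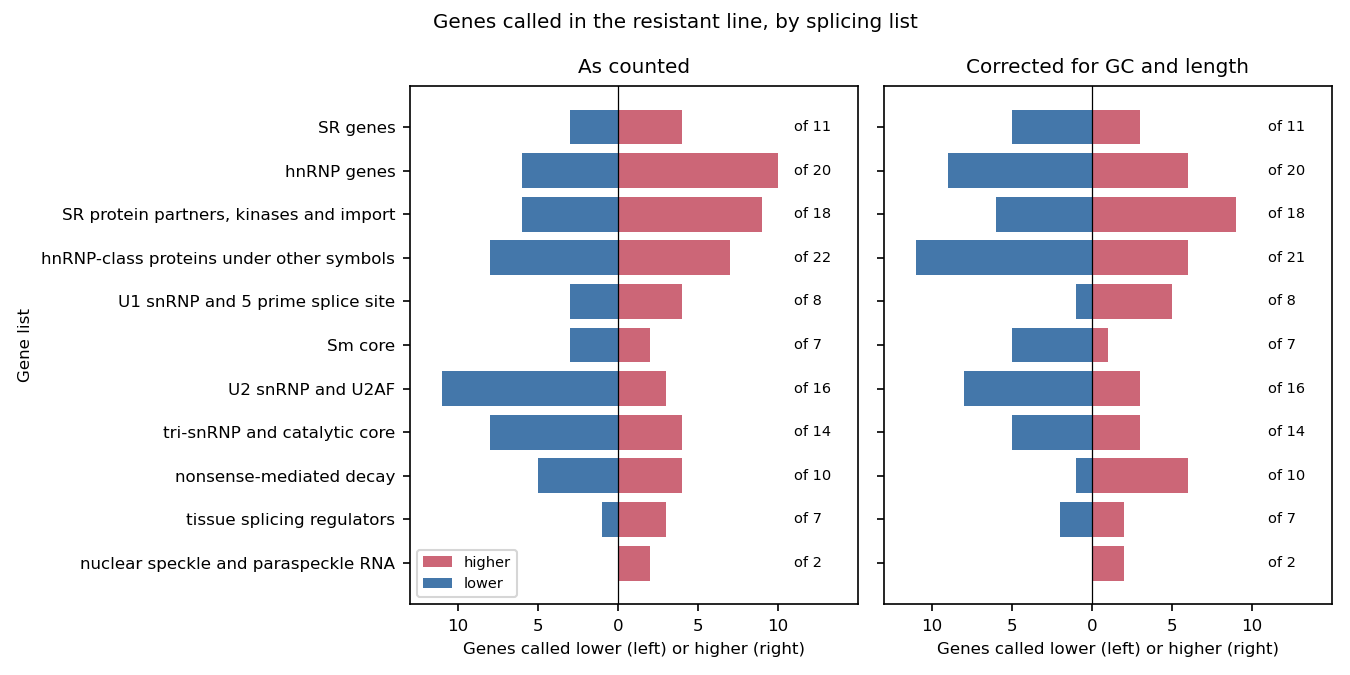
Number of genes called lower (bars to the left) or higher (to the right) in the resistant line for the SR genes, the hnRNP genes and each splicing list, of the number tested, as counted and corrected. The U2 list has 11 lower and 3 higher of 16 as counted, while SR genes go from 4 higher and 3 lower to 3 higher and 5 lower after correction.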

How the data were processed

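The authors deposited raw counts per gene for 6 libraries of 786-O and 7R cells. Reads were aligned with HISAT2 2.0.4, per the submitters' processing notes; for the counting program, strand setting, genome build and annotation, the sources used here give nothing. Columns were matched to samples by title, and 0 sample columns were left over. Libraries held 37919629 to 52221491 counts, and every pair within a line differed by more than counting error (chi-squares of 8.94 to 62.9 per degree of freedom).

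All genes passing filterByExpr (16642) were tested with edgeR 4.0.16 (R 4.3.3, limma 3.58.1), TMM factors and the quasi-likelihood test, with Benjamini-Hochberg adjustment over all of them. The SE of a log2 fold change was computed as the absolute fold change divided by the square root of the test's F statistic. CPM values use TMM-scaled library sizes. For the correction, each library's deviation in log2 CPM (prior count 1) from the gene mean was regressed on GC content and log2 length, as natural splines with 6 and 5 degrees of freedom, and the fitted values served as offsets. GC content and length are medians over GENCODE release 29 basic transcripts, with 34629 gene rows matched by name and 1323 by another symbol. Values were found for 14243 (85.6%) tested genes and all 38 members. The ratio of SRSF1 to HNRNPA1 was tested with an exact permutation test, and the other ratios are given without a test.

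The members, lists and tests were chosen with earlier results of these data known. Every tested member is named, and of each list up to 3 called genes with the smallest p plus the strongest called gene against the list's direction, except 1 gene that is not reported here. Alternatives were DESeq2 1.42.0, other scalings and filters, the correction, a replicate block and leaving out each library. Adding pseudogene counts, leaving libraries out of the corrected test, and sums scaled by library size alone were chosen after seeing the data. The tests were also run on simulated independent libraries, without and with the same fitted trend that the correction removes. This cannot show whether the correction or the p-values hold for these data.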

Additional observations from a re-analysis of the deposited data

How the results depend on the processing

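The counts as counted, 4 higher and 3 lower SR genes and 10 higher and 6 lower hnRNP genes, were the same with DESeq2, with its size factors in edgeR and with pseudogene counts added. Upper-quartile factors or a filter of 1 CPM in 3 libraries gave 5 higher SR genes, no filter 9 higher hnRNP genes, and library size alone 1 lower SR gene. Leaving out 1 library in turn gave 2 to 5 higher and 3 lower SR genes and 8 to 10 higher and 6 to 8 lower hnRNP genes. Corrected for GC content and length, there were 3 and 5 SR and 6 and 9 hnRNP genes, and corrected for GC content alone 1 and 5, and 5 and 10. With 1 library left out of the corrected test, higher SR genes numbered 1 to 2, lower ones 5 to 6, higher hnRNP genes 6 and lower ones 7 to 10.

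Signs turned as follows; the cause was not tested. Values are with GC content alone, GC content and length, the latter with a replicate block, and the latter without resistant replicate 1. HNRNPA1 had -0.26, -0.11, -0.10 and -0.10, HNRNPDL -0.26, -0.25, -0.25 and -0.24, HNRNPLL -0.74, -0.70, -0.71 and -0.87, HNRNPM 0.47, 0.54, 0.55 and 0.51, HNRNPR -0.45, -0.41, -0.25 and -0.74, and HNRNPU -0.26, -0.29, -0.30 and -0.37. SRSF4 had 0.075, 0.16, 0.16 and 0.12, SRSF7 -0.65, -0.56, -0.56 and -0.58, and SRSF8 -0.43, -0.47, -0.46 and -0.50. HNRNPUL1 had 0.020, 0.021 and 0.021 in the first 3 of these, HNRNPAB 0.051, 0.052 and 0.064 in the last 3, and SRSF5 -0.10 with GC content alone. Library size alone gave HNRNPC 0.20, HNRNPK 0.14, HNRNPM 0.26, SRSF3 0.19 and SRSF6 0.22. With 1 library left out HNRNPR ranged from -0.28 (without control replicate 3) to 0.65, and was -0.13 without resistant replicate 1. The ratio of SRSF1 to HNRNPA1 ranged from -0.052 to 0.091 with 1 library left out, and that of the sums from -0.09 to -0.02.

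The replicate numbers in the labels are shared by both lines. Deviations of same-numbered libraries had correlations of -0.13, -0.01 and -0.06. With 3 libraries per line these values depend on each other, so they cannot show whether the numbers pair the samples. With the replicate block the member counts stayed at 4, 3, 10 and 6, and calls over all genes numbered 12097 in place of 12683. With the block and the correction they were 1 and 5 SR genes and 6 and 9 hnRNP genes. The correction rests on annotated transcripts that may not be those expressed, and GC content may differ between the lines for reasons in the cells. HNRNPR, HNRNPA1L2 and HNRNPH2 had few counts, which limits their precision, and gene counts hide isoforms.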

Other observations

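The count table also lists 129 pseudogenes of the SR and hnRNP genes, which the choice of members left out. Of these 44 had any count and 19 could be tested, of which 9 rose and 2 fell, against 39.3% and 36.9% of all genes tested. HNRNPH1P1, a copy of HNRNPH1, had 9, 14 and 8 counts in the control and 78, 76 and 94 in the resistant libraries and rose by 3.03 ± 0.36 on the log2 scale (SE, edgeR adjusted p = 9.99e-06), by 2.77 after correction for GC content and length. SRSF11P1 had 13, 3 and 11 counts in the control and 79, 115 and 109 in the resistant libraries and rose by 3.52 ± 0.43. HNRNPRP3 had 9, 12 and 19 counts in the control and 57, 53 and 73 in the resistant libraries and rose by 2.23. The parents HNRNPH1 and SRSF11 rose by 1.10 and 1.32, less than these copies, and the pseudogene share of SRSF11 counts went from 0.114% to 0.456% in the control to 1.38% to 1.59% in the resistant libraries. The difference between parent and copy was not tested, and reads of near-identical copies cannot be assigned with certainty. The copies with most counts, HNRNPLP2 (3332 to 3777 in the control and 1323 to 1640 in the resistant libraries) and HNRNPA1P48 (889 to 1148 and 1109 to 1342), had fold changes of -1.20 and 0.30, of which the second did not pass (adjusted p = 0.0613). Corrected, they were -0.17 and -0.005, and neither was called (adjusted p = 0.0611 and 0.969).

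The row RPL36A-HNRNPH2, which shares exons with the nearly uncounted HNRNPH2, rose by 1.13 on the log2 scale (adjusted p = 1.03e-04), and by 1.02 after correction. RPL36A lies in the same row, so the change cannot be assigned to HNRNPH2.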
